A study of Homo sapiens with 4 samples.

Results

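The genes described here code for the complement system: its soluble proteases and their substrates, the proteins that build the membrane attack complex, and the regulators that hold the cascade in check. A list of 32 such genes, chosen by function, was looked up among the gene names of a 1-colour Agilent expression array. Of these, 31 had a probe of their own name, out of 34809 named genes on the array, and C4A had none. Each gene was read from its brightest probe. A probe was kept when the scanner software called it well above background on the control array or on all 3 knockdown arrays, and 28 of the 31 genes passed, among 24902 genes in all. The 3 that did not pass were C9, CFHR4 and CFHR5, and 27 genes were above it on each of the 4 arrays.

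The cells were Hep3B, an established line derived from a human liver cancer. One culture received a mock hairpin plasmid (shR-MOCK), and each of the others received a plasmid for a short hairpin RNA against the mRNA of UNC50, a conserved membrane protein, at base 467 (shR-467), base 554 (shR-554) or base 749 (shR-749). All 4 cultures were transfected and then selected with puromycin, which kills cells without a plasmid, and total RNA from each was hybridised to 1 array. The 3 hairpins, different reagents against 1 mRNA, served as the replicates of the knockdown, and what a single hairpin does on its own is part of the spread between them. There was only 1 mock array, so the spread between control cultures is not known, and no label says that any culture was repeated.

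Complement is a chain of proteases in blood plasma, most of which are made by liver cells. The classical pathway starts with C1 bound to antibody, the lectin pathway with mannose-binding lectin on sugars, and the alternative pathway with spontaneous turnover of C3. All of them split C3 and then C5, after which C5b gathers C6, C7, C8 and C9 into a pore in the target membrane. Inhibitors in plasma (C4b-binding protein, factor I, C1 inhibitor, clusterin, vitronectin) and on the cell surface (CD46, CD55, CD59) protect the host's own cells. Many of these genes belong to the acute phase response, in which interleukin-6, interleukin-1 and interferon-gamma act on the liver.

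The targeted gene came first. The UNC50 probe gave a processed signal of 5010 for the mock hairpin and of 1050, 853 and 947 for shR-467, shR-554 and then shR-749. After scaling this was 24.0%, 13.7% and 18.7% of the mock level, with a mean log2 difference of -2.45 ± 0.40 (SD, n = 3 hairpins). Each array had 58717 spots other than controls, of which 67.6% to 73.6% were well above background, and none was saturated. The 75th percentile of the signal, used for scaling, ran from 978 to 1390 between arrays, so processed signals of 1 gene should be compared only after scaling. Spots of the same probe differed with a median SD of 0.05 to 0.06 on the log2 scale within an array, and the error that the software assigns to a difference of 2 bright signals was 0.20. All 8 hepatocyte markers listed, such as albumin and alpha-fetoprotein, were well above background on every array, as against 2 of 8 macrophage markers, 3 of 4 endothelial markers, 0 of 4 stellate cell markers and 1 of 3 lymphocyte markers.

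The probes decide which transcript a value belongs to, and 3 of them are shown here because a result below turns on them. Each is a 60-base oligonucleotide, printed 5′ to 3′ as the array design gives it. The C5 probe lies at chr9:123715067-123715126 on the minus strand of hg19, the build of the array annotation, and is annotated to C5 only. The C4B probe is annotated to C4A and C4B alike, so its value cannot be assigned to either gene, and no position is given for it. The MASP2 probe lies at chr1:11106623-11106682 on the minus strand and is annotated to the transcript of MAp19, a short product of this gene without the protease part. Whether this probe also detects the full-length MASP2 transcript was not checked.
C5: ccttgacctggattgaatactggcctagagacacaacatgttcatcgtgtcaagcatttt
C4B and C4A: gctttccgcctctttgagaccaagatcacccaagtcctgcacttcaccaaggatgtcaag
MASP2: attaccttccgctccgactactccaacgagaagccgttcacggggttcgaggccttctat
Probes of members that neighbour each other in the genome were compared with one another, not with the neighbour's transcript. Over 12 such pairs, among them C1R and C1S, C6 and C7, C8A and C8B, and the CFHR genes, the best alignment without gaps matched 17 to 23 of 60 bases. The CFHR4 probe matched the CFHR3 probe at only 21 of 60 bases, yet the array design assigns it to CFHR3 transcripts as well. A low match between probes therefore does not show that a probe misses the neighbour's transcript, which was not tested.

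Against the mock array, 4 of the 28 genes were at least 1.5-fold higher on average over the 3 hairpins, namely C5, C6, CFHR2 and MASP2. The share among all genes tested was 2.28%. C7 and C8A, 2 of the 28, were at least 1.5-fold lower on average, where the share among all genes was 7.47%. C5 was the only member at least 1.5-fold higher with every hairpin (0.534% of all genes), and C7 the only one at least 1.5-fold lower with every hairpin (1.18% of all genes). The C7 value does not hold spot by spot, as described below. Without shR-467 only C5 of the 28 was 1.5-fold higher on average, and without shR-554 only C7 was 1.5-fold lower. In a limma fit of the 3 hairpins against the mock array, 0 of the 28 members and 0 of the 24902 genes (0.0%) reached an adjusted p under 0.05. Without adjustment, limma gave p under 0.05 for 377 genes (1.51%) and for 1 member, C5. The fit has 2 residual degrees of freedom and takes the lone mock array to vary like the hairpins. UNC50 itself, at a mean log2 difference of -2.45, was not called either, so the lack of calls says little about the members. An exact permutation test of 1 array against 3 cannot go below p = 0.25.

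The hairpins disagreed for most of these genes. The mock array lay between the lowest and the highest hairpin for 21 of the 28 genes. All 3 hairpins were on the same side of it for only C5, C7, CFI, CFD, CD46, CD59 and SERPING1. This did not hold with the other probes of CFI and SERPING1, nor with each spot of C7. Over all genes, 38.2% had all 3 hairpins on the same side, against 7 of 28 here. At least 1 hairpin was 1.5-fold or more from the mock array for 14 of the 28 genes, where the share of all genes was 34.5%. The remaining 14 genes stayed under 1.5-fold with every hairpin (65.5% of all genes). C8A and CFHR2 were 1.5-fold higher with 1 hairpin and 1.5-fold lower with another (2.97% of all genes). The lowest and highest hairpins were at least 2-fold apart for C6, C8A, C8B, CFHR2 and MASP2 (17.9% of all genes). Dim probes weigh on the shares of all genes. Among the 21231 genes well above background on every array, of which 27 were members, 10.3% had hairpins 2-fold apart, with the same 5 members, and 2.87% were at least 1.5-fold lower on average, with the same 2 members. The share at least 1.5-fold higher on average was 2.34% there, with the same 4 members. At least 1 hairpin was 1.5-fold or more from the mock array for 25.9% there, with the same 14 members. Hairpins 1.5-fold from it on opposite sides made up 1.3% there, with the same 2 members.

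**Figure D1:**
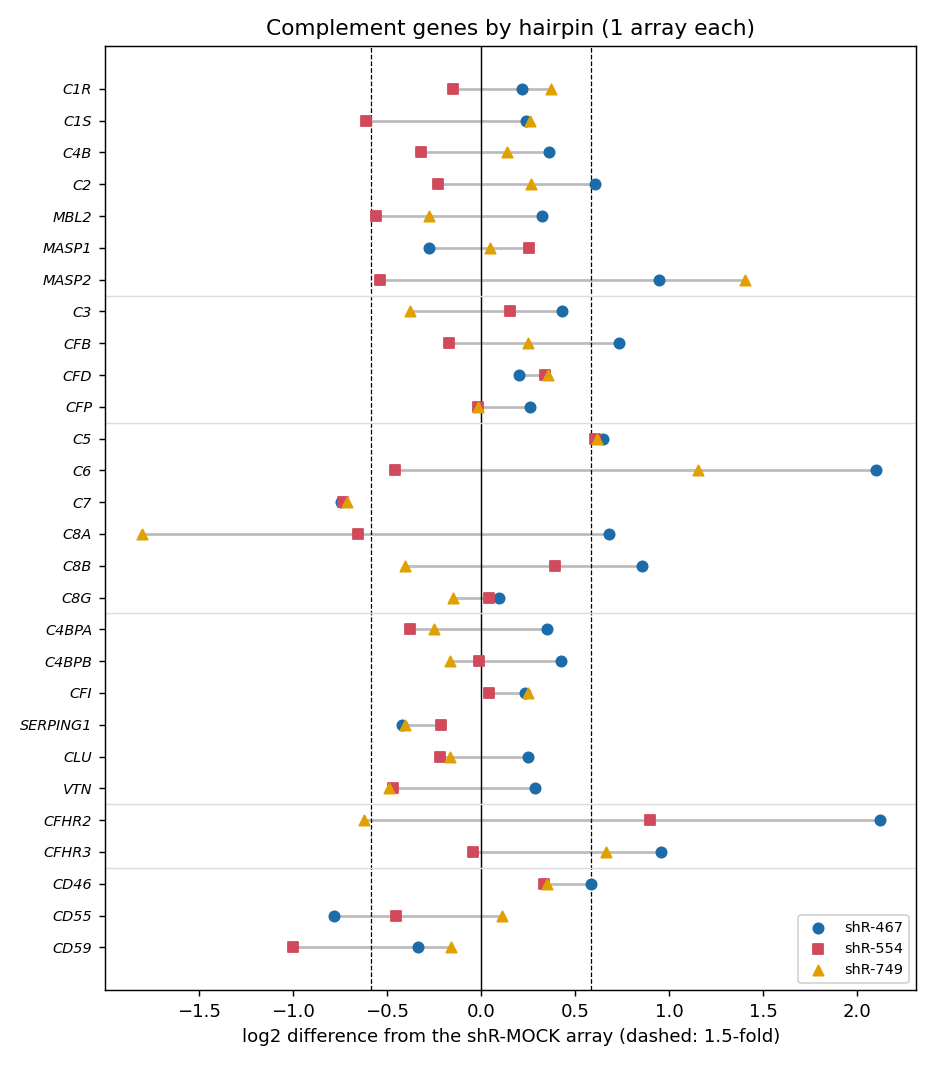
Log2 difference of each hairpin from the mock array (horizontal axis) for the 28 complement genes that passed the filter, grouped by role from top to bottom (initiation, C3 and the alternative pathway, terminal pathway, soluble regulators, CFHR genes, membrane regulators), with 1 symbol for each hairpin and a grey line over their range. The 3 symbols coincide for C5 at about 0.6 and for C7 at about -0.7, while those of C6, C8A, CFHR2 and MASP2 spread over more than 1.9 log2 units.

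The classical pathway begins with the C1 proteases, whose genes lie side by side on chromosome 12. C1R gave a signal of 6010 on the mock array and then, in rising order of hairpin number, 6100, 6740 and 7840, and every series of 4 signals or 3 differences below follows this order. The log2 differences of C1R from the mock array were 0.22, -0.15 and 0.37. C1S, which C1r cleaves into its active form, gave 7004, 7220, 5693 and 8473, with log2 differences of 0.24, -0.61 and 0.26. Both genes were thus lowest with shR-554, and only C1S with shR-554 passed 1.5-fold. Neither mean, 0.15 ± 0.27 for C1R and -0.04 ± 0.50 for C1S (SD, n = 3 hairpins), exceeded its spread.

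C1s cleaves C4 and then C2, which together form the C3 convertase of the classical and lectin pathways. C2 gave 4928, 6561, 5224 and 5985, or log2 differences of 0.61, -0.23 and 0.27, so that it passed 1.5-fold with shR-467 alone. The probe shared by C4A and C4B gave 5009, 5615, 4990 and 5560, or 0.36, -0.32 and 0.14. C2 and C4 therefore took the same order over the hairpins, with shR-467 highest and shR-554 lowest, and the mock array lay within the range of both. The genes of C2, C4 and factor B neighbour each other on chromosome 6.

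Of the lectin pathway genes, MBL2 lay near background. MBL2, mannose-binding lectin itself, gave 27.9, 30.5, 23.5 and 23.2, where only the mock value was well above background by the rule used. The log2 differences were 0.33, -0.56 and -0.28, so shR-467 lay above the mock array. The knockdown mean, bounded at 1.07-fold below the mock array, was close to the mock level. Its log2 difference was -0.02 with the authors' values and 0.025 without shR-554. No direction can therefore be read for MBL2. The gene MASP1 codes for a protease that travels with the lectin. Its brightest probe, annotated to a single transcript of the gene, gave 545, 394, 807 and 569, or -0.27, 0.25 and 0.05. Whether that transcript codes for the protease was not checked. A second, dimmer MASP1 probe, annotated to another transcript, gave 24.5, 32.3, 23.5 and 39.7 and the opposite signs with shR-467 and shR-554, but it was well above background on only 3 arrays.

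MASP2 carried the largest spread of the lectin genes. Its probe, the last of the sequences above, gave 95.6, 161, 81.9 and 255, or log2 differences of 0.95, -0.53 and 1.40. The mean was 0.61 ± 1.01 (SD, n = 3 hairpins), so its 1.5-fold average rested on shR-467 and shR-749, while shR-554 was below the mock array. This probe was printed in 1 spot only. A second MASP2 probe, annotated to the transcript of the full-length protease MASP-2, was well above background on 0 of the 4 arrays, so these values give no level for that transcript.

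C3, the protein on which the 3 pathways converge, gave 62135, 73273, 85994 and 48247, or log2 differences of 0.43, 0.16 and -0.38. Both shR-467 and shR-554 were thus above the mock array and shR-749 below it, and the mean of 0.07 ± 0.41 (SD, n = 3 hairpins) was smaller than the spread. CFB, factor B, supplies the protease of the alternative pathway convertase. It gave 4340, 6315, 4793 and 5209, or 0.74, -0.17 and 0.25, the order already seen for its neighbour C2. CFD, the protease that activates factor B, differed least between hairpins in this group. Its signals were 4018, 4040, 6305 and 5185, or 0.20, 0.34 and 0.35, and its mean of 0.30 ± 0.08 (SD, n = 3 hairpins) was above the mock array in 3 of 3 hairpins but under 1.5-fold. The limma p of CFD was 0.153 before adjustment and 1.00 after it. CFP, properdin, which stabilises the convertase and is better known from leukocytes, gave 59.5, 62.4, 73.0 and 59.3, or 0.26, -0.02 and -0.02.

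C5, the substrate of the last convertase and the source of the anaphylatoxin C5a, was the member on which the hairpins differed least among those whose spots agreed. The 4 signals were 1250, 1710, 2360 and 1935, and its 2 spots never parted by more than 0.07 on the log2 scale within an array. After scaling, the 3 log2 differences were 0.65, 0.61 and 0.62, or 1.57-fold, 1.52-fold and 1.53-fold. The mean was 0.62 ± 0.02 (SD, n = 3 hairpins), above the mock array in 3 of 3 hairpins. The limma p was 0.0175 unadjusted and 1.00 after Benjamini-Hochberg adjustment over all genes, so C5 was not called. All 3 values lie close to the 1.5-fold line, which is 0.58 on this scale, and each carries the software's error of 0.20. In the authors' quantile-normalized values they were 0.64, 0.56 and 0.64, and with normexp background correction 0.62, 0.47 and 0.60, so that shR-554 was under 1.5-fold in both. Because the comparison rests on 1 mock array, any deviation of that array would enter all 3 differences alike. In a bulk culture, more cells with C5 mRNA and more C5 mRNA per cell cannot be told apart, which holds for every gene here.

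C6 and C7, homologous proteins that bind C5b in turn and whose genes neighbour each other on chromosome 5, can be compared only in part, since the C7 spots disagreed. C6 gave 132, 496, 120 and 298, or log2 differences of 2.10, -0.45 and 1.16. It was 4.29-fold higher with shR-467 and 2.23-fold higher with shR-749, but 1.37-fold lower with shR-554, so that the mean of 0.93 ± 1.29 (SD, n = 3 hairpins) was smaller than the spread. Both spots of C6 followed this order, with the largest gap between them within an array at 0.10 on the log2 scale. The C7 average gave 101, 52.6, 75.4 and 62.3, or -0.74, -0.73 and -0.71, a mean of -0.73 ± 0.02 (SD, n = 3 hairpins). This close match came from averaging 2 spots that contradicted each other. The first C7 spot gave 115, 87.1, 52.2 and 41.1, or log2 differences of -0.21, -1.45 and -1.50. The second gave 88.7, 31.8, 109 and 94.4, or -1.28, -0.01 and 0.08. The widest gap between the log2 signals of both spots on 1 array was 1.45, while the median of this widest gap over the 23 members printed in 2 spots was 0.10. A gap of more than 1 occurred in 346 of 4857 genes with 2 spots, or 7.12%. No order of the hairpins can be read for C7, and only the second spot with shR-749 was above the mock array.

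C8 is built from 3 chains with a gene each, and these differed from one another. C8A, the alpha chain, gave 2925, 4090, 2305 and 845, or log2 differences of 0.68, -0.66 and -1.80. It was 1.60-fold higher with shR-467 and 3.49-fold lower with shR-749, so its mean of -0.59 ± 1.24 (SD, n = 3 hairpins) lay near the value of shR-554 but far from those of shR-467 and shR-749, and without shR-749 the mean was 0.012. C8B, the beta chain, whose gene neighbours C8A on chromosome 1, gave 1089, 1720, 1775 and 830, or 0.85, 0.39 and -0.40. In both genes shR-467 was highest and shR-749 lowest, with shR-554 on opposite sides of the mock array. C8G, the gamma chain on chromosome 9, which belongs to another protein family, gave 13997, 13050, 17890 and 12750, or only 0.09, 0.04 and -0.15. C9, which forms the wall of the pore, was well above background on 0 of 4 arrays and has no level here.

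**Figure D2:**
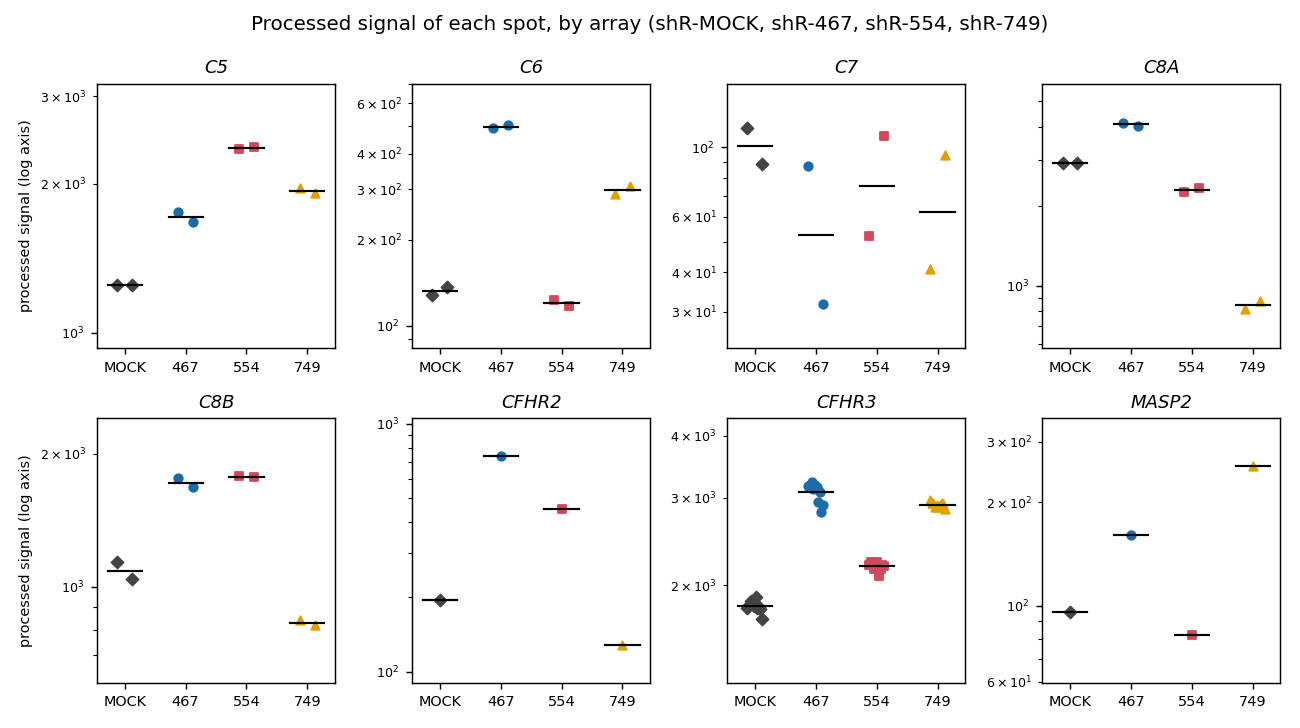
Processed signal of each spot (vertical axis, log scale, scanner units before scaling) on each of the 4 arrays for 8 complement genes, with a bar at the geometric mean of the spots. The spots of C5, C6, C8A, C8B and CFHR3 lie close together on each array, those of C7 lie far apart on the 3 knockdown arrays, and CFHR2 and MASP2 have 1 spot each.

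The CFHR genes form a cluster on chromosome 1 and code for secreted proteins that bind C3 fragments. CFHR2 gave 195, 740, 451 and 128 from 1 spot, or log2 differences of 2.12, 0.90 and -0.62. It was 4.35-fold higher with shR-467, 1.86-fold higher with shR-554 and 1.54-fold lower with shR-749, a mean of 0.80 ± 1.37 (SD, n = 3 hairpins). CFHR3 had the most spots of all members, 10 on each array. Its signals were 1816, 3076, 2187 and 2908, or 0.96, -0.04 and 0.67, with a mean of 0.53 ± 0.51 (SD, n = 3 hairpins). The spots of CFHR3 differed with an SD of 0.02 to 0.07 within an array, far less than the hairpins did. Thus CFHR2 and CFHR3 shared their high value with shR-467 and differed with shR-554 and shR-749.

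CFHR4 and CFHR5 were below background on the mock array, so that only bounds can be given. CFHR4 gave 31.8 with shR-467, the only array on which it was well above background, where it was at least 1.93-fold higher, and 18.5 or less elsewhere. CFHR5 gave 9.15, 39.1, 38.1 and 5.12 and was well above background with shR-467, at least 2.37-fold higher, and with shR-554, at least 1.63-fold higher. Over all 3 hairpins CFHR5 was at least 1.01-fold higher, a bound close to the mock level. CFHR2 and CFHR3, the CFHR genes that passed the filter, thus had their highest scaled value with shR-467, as did 42.8% of all genes. The CFHR4 and CFHR5 probes were also highest there. They were well above background only on arrays where they were high, and the CFHR4 probe is annotated to CFHR3 as well. These bounds set the mean of the bright array against the lowest signal called well above background on the mock array. They leave out the software's error, which with shR-467 was 0.76 for CFHR4 and 0.74 for CFHR5 on the log2 scale. They also hold for the main scaling only. With normexp background correction the log2 differences with shR-467 were 0.40 for CFHR4 and 0.48 for CFHR5. That of CFHR5 with shR-554 was 0.43, and all of these lie below the bounds.

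The soluble regulators stayed under 1.5-fold with every hairpin. C4BPA and C4BPB, neighbouring genes for the chains of C4b-binding protein, were both above the mock array with shR-467 and below it with shR-749. C4BPA gave 10050, 11200, 9611 and 8545, or log2 differences of 0.35, -0.38 and -0.25. C4BPB gave 3875, 4539, 4774 and 3490, or 0.42, -0.01 and -0.16. CFI, factor I, the protease that cuts C3b and C4b, gave 10900, 11198, 13949 and 13100, or 0.23, 0.04 and 0.25. This was above the mock array in 3 of 3 hairpins by a mean of 0.18 ± 0.12 (SD, n = 3 hairpins). The 0.04 of CFI with shR-554 lay within the software's error of 0.20, and a second CFI probe gave -0.06 there. CLU, clusterin, which keeps the forming pore out of membranes, gave 18293, 18996, 19498 and 16449, or 0.25, -0.22 and -0.17. VTN, vitronectin, with a similar role, gave 2380, 2535, 2140 and 1710, or 0.29, -0.46 and -0.49. C4BPA, CLU and VTN were thus all above the mock array with shR-467 and below it with shR-554 and shR-749. C4BPB shared the sides with shR-467 and shR-749, while its -0.01 with shR-554 lay well within the software's error of 0.20.

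SERPING1, the C1 inhibitor, was the soluble regulator with the lowest mean. Its brightest probe gave 156, 102, 167 and 119, or -0.42, -0.21 and -0.40, a mean of -0.34 ± 0.11 (SD, n = 3 hairpins). The 2 other SERPING1 probes did not repeat this. The first of them gave -0.19, -0.19 and 0.13, and the other gave -0.12, 0.10 and 0.38, so the direction of SERPING1 depended on the probe.

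Of the 3 membrane regulators, CD46 was higher and CD55 and CD59 were lower on average, each by less than 1.5-fold. CD46, the cofactor for factor I on cell surfaces, gave 578, 759, 907 and 745, or log2 differences of 0.59, 0.34 and 0.35. Its mean of 0.43 ± 0.14 (SD, n = 3 hairpins) was above the mock array in 3 of 3 hairpins, with a limma p of 0.118 unadjusted and 1.00 adjusted. CD55, which takes the convertases apart, gave 563, 287, 511 and 614, or -0.78, -0.45 and 0.11, so that it was 1.72-fold lower with shR-467 and above the mock array with shR-749. CD59, which blocks the entry of C9 into the pore, gave 255, 177, 159 and 231, or -0.33, -0.997 and -0.16. It was below the mock array in 3 of 3 hairpins, by a mean of -0.50 ± 0.44 (SD, n = 3 hairpins), and passed 1.5-fold with shR-554 alone. The genes of CD46 and CD55 lie close to those of C4BPA and C4BPB on chromosome 1, and the pairs did not share an order of hairpins: with shR-467, CD55 was the member furthest below the mock array while its other 3 neighbours were above it.

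Most of these genes were higher with shR-467 than on the mock array. With this hairpin 23 of the 28 genes were above the mock array (54.2% of all genes), 10 by at least 1.5-fold (7.18% of all genes) and 2 at least 1.5-fold below it (6.73% of all genes). The median log2 difference was 0.34 over the 28 genes and 0.03 over all genes. The 10 genes were C2, C5, C6, C8A, C8B, CFB, CFHR2, CFHR3, MASP2 and CD46, and the 2 below were C7 and CD55. With shR-554 fewer were high, with 9 of 28 genes above the mock array (45.4% of all genes) and a median of -0.19, against -0.04 over all genes. C5 and CFHR2 were at least 1.5-fold higher with shR-554 (4.39% of all genes), and C1S, C7, C8A and CD59 at least 1.5-fold lower (15.5% of all genes). With shR-749, 14 of 28 were above the mock array (43.0% of all genes), with a median of 0.02, against -0.05 over all genes. Here C5, C6, CFHR3 and MASP2 were at least 1.5-fold higher (5.37% of all genes) and C7, C8A and CFHR2 at least 1.5-fold lower (10.1% of all genes). Dim probes weigh on these shares too. Among the 21231 genes well above background on every array, 4.3%, 7.93% and 6.25% were at least 1.5-fold lower, with shR-467 first. The shares at least 1.5-fold higher were 6.1%, 4.5% and 5.25%, and those above the mock array 55.2%, 50.7% and 45.9%. The members past 1.5-fold were the same.

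The same contrast appeared without the mock array. Set directly against shR-554, the shR-467 array was higher for 23 of the 28 genes (56.8% of all genes), with 13 at least 1.5-fold higher (18.9%) and 0 at least 1.5-fold lower (7.87%). The median difference was 0.47 over the 28 genes and 0.07 over all genes. The 13 genes were C1S, C2, C4B, C4BPA, C6, C8A, CFB, CFHR2, CFHR3, MASP2, MBL2, CD59 and VTN, of which MBL2 was not well above background on either array. Against shR-749, shR-467 was above for 18 of the 28 genes (58.2%), at least 1.5-fold higher for 9 (14.0%), MBL2 again at background on both arrays, and at least 1.5-fold lower for CD55 alone (8.12%). Against shR-554, shR-749 was above for 18 genes (49.6%), at least 1.5-fold higher for C1S, C6, CFHR3, MASP2 and CD59 (13.3%) and at least 1.5-fold lower for C8A, C8B and CFHR2 (7.22%). Of the 3 hairpins, shR-467 gave the highest value for 18 of the 28 genes, shR-749 for 8 and shR-554 for 2, where the shares of all genes were 42.8%, 26.3% and 30.9%. UNC50 itself was least reduced with shR-467 and most reduced with shR-554. With 1 array for each hairpin, a hairpin and its culture cannot be told apart, and none of these differences between hairpins has a test.

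Coagulation genes and other plasma protein genes of the liver were high with shR-467 too. The median log2 difference of 27 coagulation genes was 0.50, 0.23 and 0.01, with shR-467 first. For 28 acute phase and plasma protein genes it was 0.36, 0.04 and 0.04. The complement genes thus had medians above that of all genes with shR-467 together with both lists, and their median with shR-554 was the only one of the 3 below zero. How far a feature shared by liver secretory genes enters the complement values was not tested.

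**Figure D3:**
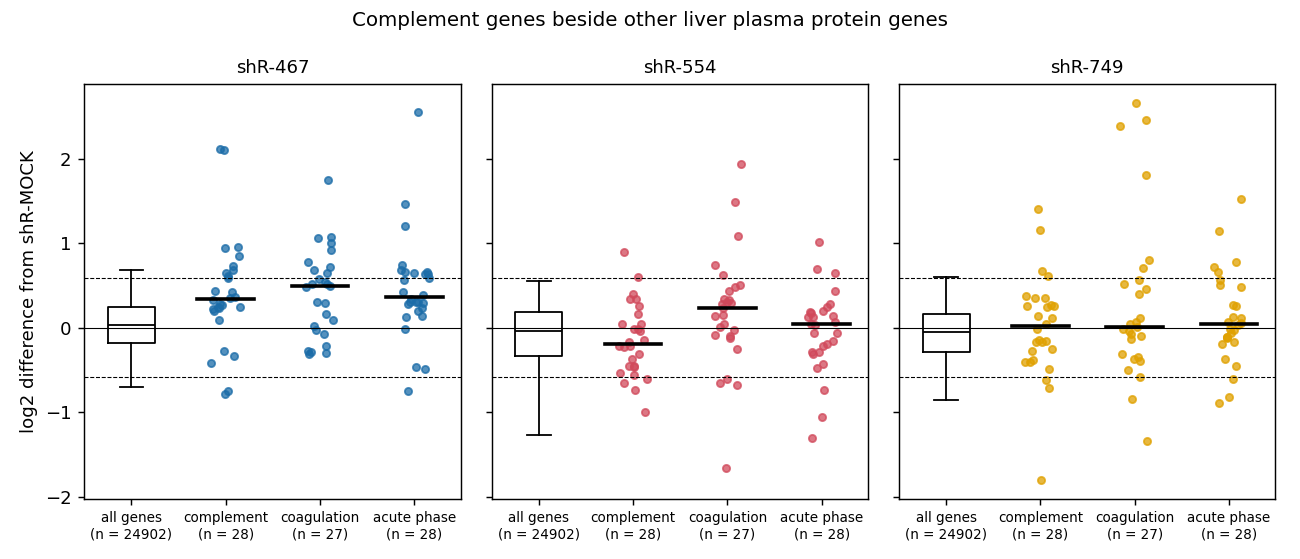
Log2 difference from the mock array (vertical axis), with 1 panel a hairpin, for all 24902 genes tested (box from the lower to the upper quartile with the median, whiskers from the 5th to the 95th percentile), 28 complement genes, 27 coagulation genes and 28 acute phase and plasma protein genes (points, with a thick bar at the median; dashed lines at 1.5-fold). With shR-467 the medians of the 3 lists are 0.34, 0.50 and 0.36, and with shR-554 the complement median is -0.19.

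Where a gene had a second probe well above background on all 4 arrays, it could be measured again with other bases of its transcript. There were 8 such pairs in 7 genes. The log2 differences of C1R, C1S, C2, C3 and C8G had the same sign with both probes in 3 of 3 hairpins, and those of CFI in 2 of 3. The largest difference between the probes of a pair had a median of 0.18 and was at most 0.22 outside SERPING1. In C3, for example, the dimmer probe gave 14200, 16700, 20000 and 10100, or 0.43, 0.18 and -0.50, next to 0.43, 0.16 and -0.38 for the brighter. The disagreement between hairpins over C1R, C1S, C2 and C3 was therefore found with both probes of each gene. SERPING1 reached a difference of 0.78 between probes. C5, C6, C8A, C8B, the CFHR genes and CFB have a single probe of their name and no such second measurement.

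**Figure D4:**
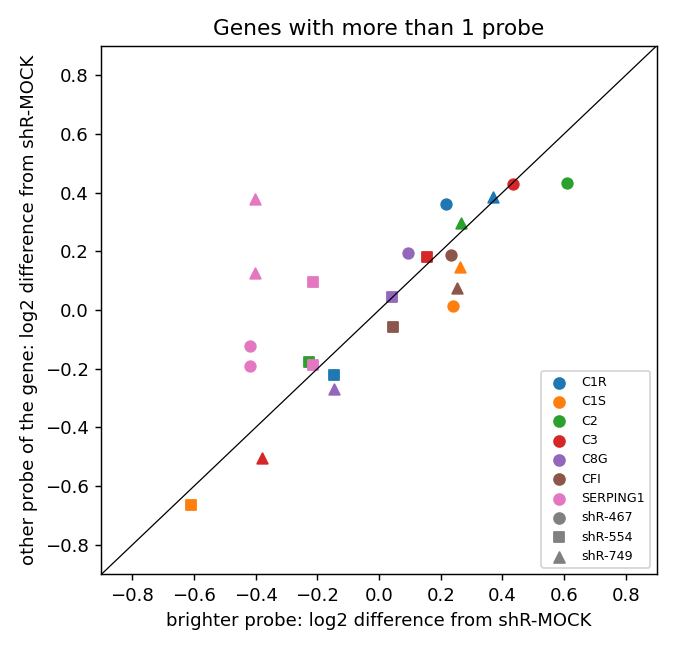
Log2 difference from the mock array by a gene's other probe (vertical axis) against that by its brightest probe (horizontal axis) for the 7 genes with a second probe well above background on all 4 arrays, with a colour for each gene and a shape for each hairpin; the line marks equal values. The points of C1R, C1S, C2, C3, C8G and CFI lie within 0.22 of the line, and those of SERPING1 reach 0.78 above it.

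The mRNA of genes in the cytokine pathway that induces complement in the liver was measured on the same arrays. Such values do not show the activity of the pathway. Of 26 listed ligands, receptors and nuclear factors, 25 were tested. Of these, 0 were at least 1.5-fold higher on average (2.28% of all genes) and 1 was at least 1.5-fold lower (7.47% of all genes). That gene was IL1B (interleukin-1 beta), at 130, 112, 56.7 and 58.0, or log2 differences of -0.02, -1.51 and -1.18. IL1B was near the mock level with shR-467 and low with both other hairpins. IL6R, the interleukin-6 receptor, gave 0.14, -0.20 and 1.26, and its partner IL6ST gave 0.37, -0.10 and -0.33. STAT3, which carries the interleukin-6 signal to the nucleus, gave 0.43, -0.05 and -0.48, the last from 2 spots that disagreed, with an SD of 0.81 on the log2 scale. CEBPB, a factor of the acute phase response, gave -0.07, -0.29 and 0.31. Over the 25 genes the medians were 0.05, -0.28 and -0.19, in the order of the hairpins above. Their median was thus lowest with shR-554, and with shR-467 it was close to the 0.03 of all genes.

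None of 12 factors that maintain hepatocyte expression was 1.5-fold higher (2.28% of all genes) or lower (7.47% of all genes) on average. HNF4A gave log2 differences of 0.61, -0.05 and 0.05, past 1.5-fold with shR-467 alone. The medians of the 12 were 0.16, -0.05 and 0.02. Among further complement genes outside the list of 32, such as receptors, ficolins and collectins, 27 of 28 had a probe and 13 were tested. Of these, 1 was at least 1.5-fold higher and 1 at least 1.5-fold lower on average, beside the same shares of all genes. The higher one was ITGB2, the common chain of complement receptors on leukocytes, at 36.7, 46.9, 46.6 and 92.2, or 0.55, 0.03 and 1.32. The lower one was C1QC, which only the mock array showed well above background. C1QA, C1QB and C1QC, which code for the recognition part of C1 and are made mainly by macrophages, were well above background on 0, 1 and 1 of the 4 arrays.

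Promoter sequences were read beside these values because the members differed in how they varied over the hairpins. Sequences are from RefSeq (GRCh38.p14), 250 bases before an annotated start, for 33 windows of 21 members, with 35116 windows in all. The windows below were chosen for C6 and C8A, on which the hairpins spread most in the terminal pathway, and for CFB, whose window held STAT, IRF and NF-kB letters. All run 5′ to 3′ on the strand of the gene towards its start, and capitals mark a motif found on either strand. The C6 window, 1 of 2 for this gene, is chr5:41261470-41261719 on the minus strand and holds the C/EBP motif TTGCNNAA. The C8A window is chr1:56854547-56854796 on the plus strand and holds none of the STAT, C/EBP, IRF and NF-kB letters. The CFB window is chr6:31945845-31946094 on the plus strand and holds, from left to right, an NF-kB motif (GGGA and CC with any 4 bases between), an IRF motif (GAAA and GAAA with any 2 bases between), a further NF-kB motif and a STAT motif (TTCNNNGAA).
C6: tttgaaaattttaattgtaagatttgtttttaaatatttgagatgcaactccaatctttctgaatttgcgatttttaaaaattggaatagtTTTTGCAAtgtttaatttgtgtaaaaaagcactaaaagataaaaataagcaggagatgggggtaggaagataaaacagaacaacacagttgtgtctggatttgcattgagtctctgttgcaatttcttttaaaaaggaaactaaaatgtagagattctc
C8A: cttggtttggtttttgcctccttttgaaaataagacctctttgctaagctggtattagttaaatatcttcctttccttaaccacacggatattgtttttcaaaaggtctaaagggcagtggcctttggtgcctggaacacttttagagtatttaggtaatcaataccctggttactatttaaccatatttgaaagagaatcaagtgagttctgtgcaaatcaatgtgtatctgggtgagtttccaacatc
CFB: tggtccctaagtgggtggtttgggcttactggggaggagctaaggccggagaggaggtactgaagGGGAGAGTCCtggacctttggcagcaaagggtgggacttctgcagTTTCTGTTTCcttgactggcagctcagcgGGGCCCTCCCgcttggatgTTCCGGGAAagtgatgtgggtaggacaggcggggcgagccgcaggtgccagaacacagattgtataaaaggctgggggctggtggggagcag
The STAT letters were present in 9 of the 33 member windows (27.3%) and in 6.57% of all windows, and the C/EBP letters in 7 (21.2%) and 9.05%. The IRF letters were present in 1 (3.03%) and 3.02%, and the NF-kB letters in 3 (9.09%) and 22.6%. Both strands were searched and windows of 1 gene overlap in part, so windows are not independent. A match describes letters only and says nothing of binding in Hep3B cells.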

How the data were processed

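Total RNA of 4 Hep3B cultures (1 mock hairpin, 3 hairpins against UNC50) was measured on 1-colour Agilent arrays. The authors deposited, per array, the scanner output of Agilent Feature Extraction 10.7.1.1, whose processed signal is a spot's intensity after background subtraction. The authors also deposited a table of log2 values, which matched quantile-normalized probe means with a median difference of about 0.001. Its scale is log2 intensity, uncentred, with a median of 6.37 on every array.

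From the scanner output, log2 of the processed signal minus log2 of the array's 75th percentile was computed. Spots marked as outliers were left out, spots of a probe were averaged, and the brightest probe stood for a gene. A probe stayed in when the software called it well above background for the mock hairpin or else for each of the 3 UNC50 hairpins. Thresholds were 1.5-fold, after the study's methods, and an adjusted p of 0.05 in limma 3.58.1 (lmFit and eBayes with a trend, prior of 4.92 degrees of freedom, Benjamini-Hochberg over 24902 genes, R 4.3.3), tested on simulated data. Values ± SD are over hairpins. All 4 arrays lay on 1 slide and in 1 scan. The number of arrays limits the precision.

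Every listed member was named. From the other lists, named genes were those well above background on all 4 arrays and 1.5-fold from the mock array on average, genes fixed by name (IL6R, IL6ST, STAT3, CEBPB, HNF4A and 1 that is not reported here), and at most 3 genes in each direction of the coagulation and acute phase lists. The C1Q genes were named as cell type markers, and TTR after its values were seen. The members and lists were chosen with earlier results of these data known. Genes carry the names of the array annotation, and 31 of 31 members matched a RefSeq symbol. Positions of probes are on hg19, and no gene model of that build was used, so exons were not assigned. Alternatives were quantile and median scaling, normexp (offset 50), the authors' values, raised low signals, other filters, marked spots kept, the mean over probes, a 2-fold threshold, limma without the trend, the methods' t-test, each hairpin left out and, chosen after seeing the data, C7 left out and each C7 spot alone. Matching used Python 3.11.15 with pandas 2.3.3 and numpy 2.4.6. The PCR, protein and tissue experiments of the study were not analysed here.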

Additional observations from a re-analysis of the deposited data

How the results depend on the processing

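The count of complement genes at least 1.5-fold higher on average was 4. It became 2 (C6 and CFHR2) with normexp background correction and 0 at a 2-fold threshold. It ran from 1 (C5, without shR-467) to 5 when a hairpin was left out. The count at least 1.5-fold lower on average was 2. It became 1 (C8A) with normexp, 0 at 2-fold and 1 with C7 left out. It ran from 1 (C7, without shR-554) to 3 when a hairpin was left out. The count past 1.5-fold in 1 direction with all hairpins was 2. It became 1 with quantile normalization, 1 with the authors' values, 0 with normexp, 0 at 2-fold and 1 with C7 left out, and ran from 3 to 5 when a hairpin was left out, 5 being without shR-554. limma called 0 members under every alternative. The methods' t-test gave 2 members unadjusted, where it gave 642 of all 24902 genes, and 0 members after Benjamini-Hochberg adjustment.

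Of 335 values of single members under these alternatives, 3 moved by at least the SD between hairpins. A setting with 1 of the 3 hairpins left out could not be among them, since that shifts a mean by less than this SD. The other filters and the marked spots kept returned the same member values. The sign changed in 17 of the 335, in 12 members, 14 of them with a hairpin left out, and all but C8A were under 1.5-fold on average. C8A ran from -1.23 without shR-467 to 0.012 without shR-749, which turned its sign. C5 became 0.56 and C7 became -0.35 with normexp, and SERPING1 became -0.10 as the mean over its probes. C7 was -1.05 from its first spot and -0.41 from its second. The median of the 28 genes with shR-467 lay between 0.28 and 0.35 and 8 to 10 of them were at least 1.5-fold higher under the scalings, filters and background corrections tried. Over all genes, the counts at least 1.5-fold higher and lower on average, 567 and 1859, became 261 and 275 with normexp and 1993 and 3368 without a filter. The cause of these changes was not tested, except that the no-filter setting adds genes. A block for slide or scan could not be fitted, since all arrays shared both. No paired analysis was possible because there was 1 mock array and the labels number no replicates. Dim genes (MBL2, CFP, C7, MASP2, C9, CFHR4, CFHR5) are limited by their signal over background. The lowest signals of C7 and MASP2, both counted as 1.5-fold changed on average, were 2.33 and 3.05 times the lowest signal called well above background. MASP2 became 0.49 with normexp, under 1.5-fold like C7.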

Other observations

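Some genes on the lists of other liver plasma proteins stood far from the mock array. Of 27 coagulation genes tested, 6 were at least 1.5-fold higher on average (2.28% of all genes) and 1 was lower (7.47% of all genes). The fibrinogen genes were higher with every hairpin and in the same order of hairpins. FGA gave signals of 502, 703, 1744 and 2660, with the mock array first and the hairpins in the order above, or log2 differences of 0.68, 1.48 and 2.39. FGB gave 0.65, 1.94 and 2.67, and FGG gave 0.52, 1.09 and 2.46, so shR-749 was highest in all of them. PLAU, urokinase, was the coagulation gene lowest on average, at -0.31, -1.66 and -0.84.

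Of 28 acute phase and plasma protein genes, 4 were at least 1.5-fold higher on average (2.28% of all genes). In the same list 2 were at least 1.5-fold lower, near the 7.47% of all genes. HP, haptoglobin, gave 3810, 19536, 4134 and 4610, or log2 differences of 2.55, -0.19 and 0.26, and so was high with shR-467 alone. HPX, hemopexin, gave 1.47, 0.70 and 0.73, AFP, alpha-fetoprotein, gave 0.20, 1.02 and 1.53, and TTR, transthyretin, gave 0.64, 0.65 and 1.15. SAA1 and SAA2, serum amyloid A genes of near-identical sequence whose probes may not tell them apart, were low with every hairpin, SAA1 at -0.75, -1.30 and -0.89 and SAA2 at -0.46, -1.06 and -0.82. In limma, 0 of the genes on either list had an adjusted p under 0.05, as for all genes, while 377 of all genes had an unadjusted p under 0.05.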
